A study of Homo sapiens with 8 samples.

Results

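The baseline open chromatin of NCI-H295R cells was taken from the peak list of the vehicle group alone, which is 1 of the 4 peak lists in the series and was made from 2 of its 8 libraries. All 61016 peaks of that list were used, and no list of a treated group entered any step. NCI-H295R is an established human adrenocortical carcinoma cell line that makes steroid hormones. It stands for a tumour of the adrenal cortex and not for normal cortex. Open chromatin was measured by ATAC-seq, in which the transposase Tn5 places sequencing adapters where DNA is accessible. Both vehicle libraries came from cells kept for 96 h in DMSO, the solvent of the compounds given to the other groups, and 50000 cells went into each library. The labels call the 2 libraries biological replicates, but the deposited list combines them. It therefore holds no replicate values, no value here has a replicate error, no test between samples could be made, and the read depth is unknown. Shares carry Wilson 95% intervals, which treat peaks or genes as independent and cover counting error only.

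Cells of the adrenal cortex make steroids from cholesterol. STAR moves cholesterol to the inner mitochondrial membrane, CYP11A1 cleaves its side chain to give pregnenolone, and CYP17A1 then carries out the hydroxylase and lyase steps towards cortisol and adrenal androgens. The nuclear receptor SF-1, encoded by NR5A1, activates many genes of this pathway. Accessible DNA is found mainly at active promoters and at distal elements such as enhancers, and groups of neighbouring distal elements often lie beside genes that give a cell its identity.

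The promoter table has an entry for 3 of the 4 markers, NR5A1, CYP11A1 and CYP17A1, and the annotated start of each lay in a peak. Their promoters are printed here, as the 250 bases before the start, together with that of MC2R, the ACTH receptor, whose start also lay in a peak, and that of HSD3B2, the adrenal 3β-hydroxysteroid dehydrogenase, whose start did not. The last pair was chosen after its values were seen. Sequences are from RefSeq, build GRCh38.p14, read 5′ to 3′ on the strand of the gene, and capitals mark matches to the motifs searched. The NR5A1 promoter is chr9:124507400-124507649, minus strand.
NR5A1: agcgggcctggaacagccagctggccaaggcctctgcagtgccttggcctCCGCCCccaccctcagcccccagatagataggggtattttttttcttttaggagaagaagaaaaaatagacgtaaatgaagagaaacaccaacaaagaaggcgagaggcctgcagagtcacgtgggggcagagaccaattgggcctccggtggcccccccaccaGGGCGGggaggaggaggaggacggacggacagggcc
The CYP11A1 promoter is chr15:74367647-74367896, minus strand.
CYP11A1: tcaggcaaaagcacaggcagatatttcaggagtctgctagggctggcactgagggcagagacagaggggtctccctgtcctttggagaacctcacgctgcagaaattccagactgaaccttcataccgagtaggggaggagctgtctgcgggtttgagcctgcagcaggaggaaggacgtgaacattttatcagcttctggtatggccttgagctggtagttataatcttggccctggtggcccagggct
The CYP17A1 promoter is chr10:102837414-102837663, minus strand.
CYP17A1: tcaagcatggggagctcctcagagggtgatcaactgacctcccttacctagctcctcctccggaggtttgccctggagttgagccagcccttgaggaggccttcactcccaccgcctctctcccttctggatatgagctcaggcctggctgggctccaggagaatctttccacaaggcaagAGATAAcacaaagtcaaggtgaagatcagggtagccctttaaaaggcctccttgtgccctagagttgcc
The MC2R promoter is chr18:13915708-13915957, minus strand.
MC2R: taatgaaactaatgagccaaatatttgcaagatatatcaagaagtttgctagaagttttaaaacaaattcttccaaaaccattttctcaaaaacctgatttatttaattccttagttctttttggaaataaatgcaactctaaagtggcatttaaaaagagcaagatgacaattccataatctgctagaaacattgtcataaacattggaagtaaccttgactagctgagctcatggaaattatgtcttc
The HSD3B2 promoter is chr1:119414681-119414930, plus strand.
HSD3B2: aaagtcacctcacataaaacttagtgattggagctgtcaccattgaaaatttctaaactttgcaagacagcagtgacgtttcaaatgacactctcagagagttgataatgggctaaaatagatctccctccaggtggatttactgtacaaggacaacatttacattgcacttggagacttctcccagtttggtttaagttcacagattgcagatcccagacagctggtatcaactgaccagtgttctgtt

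The motifs searched, on both strands, were CAAGGTCA for SF-1, AGATAA for GATA factors, CTTTGATC or CTTTGAAG for TCF/LEF, TGACGTCA for the cAMP response element, TGANTCA for AP-1, GGGCGG for Sp and KLF factors, and GCGCATGC for NRF1. NR5A1 held the Sp/KLF letters at positions -200 to -195 and -36 to -31, counted so that -1 is the base before the start. CYP17A1 held the GATA letters at -69 to -64. CYP11A1, MC2R and HSD3B2 held none of these exact letters in this window. Variant spellings of the 7 motifs were not counted, so a missing match does not show that a site is absent. The G and C content of these promoters was 59.6% in NR5A1, 54.4% in CYP11A1, 56.0% in CYP17A1, 30.0% in MC2R and 40.8% in HSD3B2, below the median of 66.0% over the 10220 promoters whose start lay in a peak. A match is a run of letters and not a site of binding.

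Each peak has the authors' area, which sums significance along the peak, so that area grows with width as well as with height. At NR5A1, 3 peaks summed to an area of 5273. The largest covered the start, on chromosome 9 at 124506107 to 124508165, with an area of 3644, and 6.31% of all vehicle peaks were larger. A second peak of area 1245 lay inside the gene at 124504099 to 124505557, and the smallest, of 383.9, lay upstream at 124511462 to 124511825.

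At CYP11A1 the peak over the start was not the largest. The start peak, on chromosome 15 at 74367247 to 74368419, had an area of 1267, and 25.6% of vehicle peaks were larger. A distal peak with its summit 6172 bp upstream of the start, at 74373465 to 74375042, had an area of 4643 and was exceeded by 3.54% of vehicle peaks. The other 4 CYP11A1 peaks had areas of 373.5 to 1419, the farthest with its summit 14845 bp upstream. CYP17A1 had 2 peaks. The peak at its start (chromosome 10, 102837189 to 102837886) had an area of 1172, and a peak inside the gene at 102834985 to 102835474 had an area of 892.3.

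STAR, on chromosome 8, had 6 peaks that summed to 4344. The peak at the higher-coordinate end of the gene, at 38150533 to 38151253, had an area of 1325. The largest STAR peak lay outside the gene, 3099 bp beyond that end, at 38153652 to 38154435 with an area of 1566. The other 4 had areas of 211.0 to 671.0. All 4 adrenocortical markers had a peak at a gene end, and NR5A1 had the largest peak there. Of all protein-coding genes 67.6% had such a peak, so 4 of 4 is not read as particular to these markers. The label of the cells is compared with markers of other lineages further on.

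**Figure D1:**
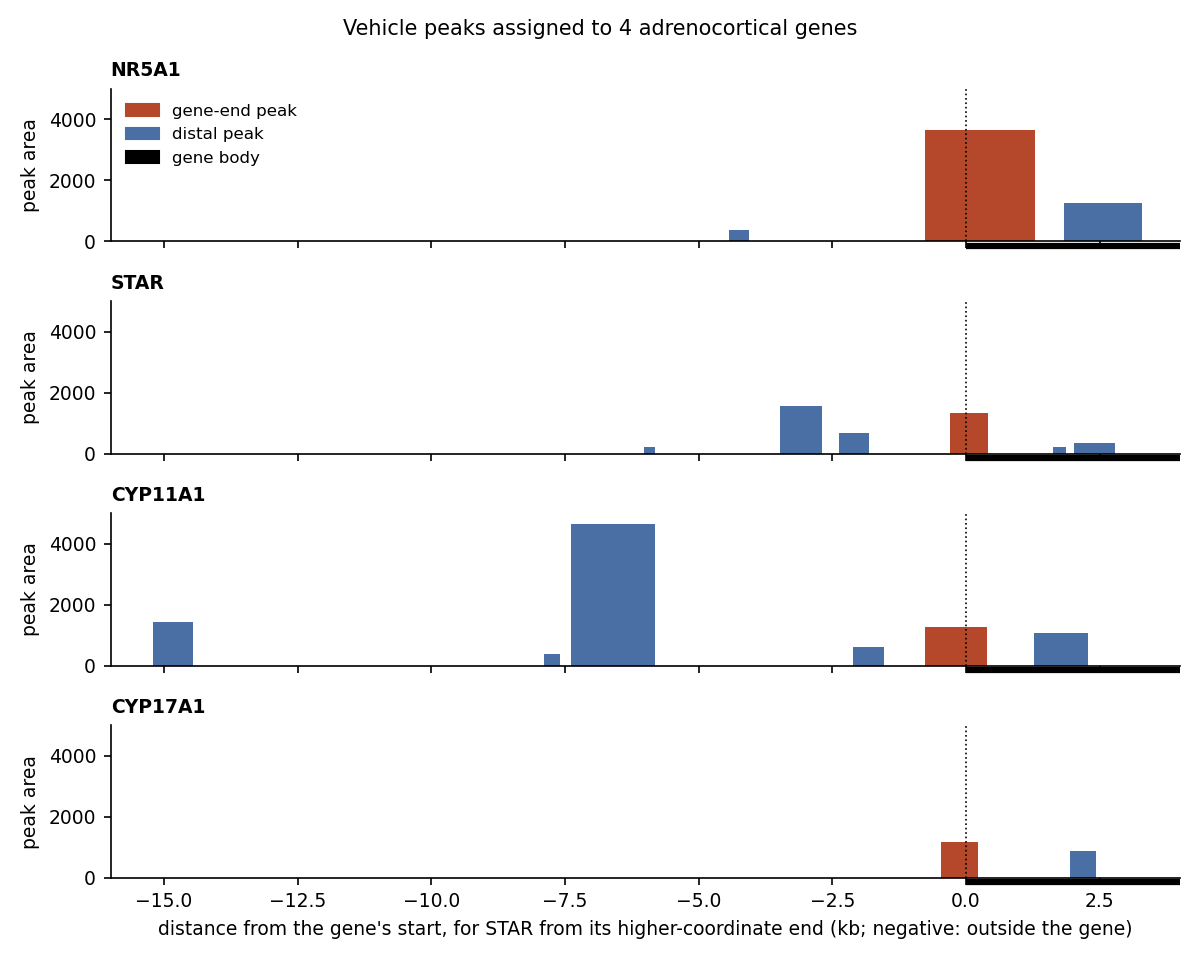
Peaks of the vehicle list assigned to NR5A1, STAR, CYP11A1 and CYP17A1, with distance from the gene's start on the x axis (kb; for STAR from its higher-coordinate end; negative values lie outside the gene) and peak area on the y axis; bar width is peak width. Each gene has a peak at position 0, and only at CYP11A1 and STAR is a peak outside the gene larger, 4643 and 1566.

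The 61016 peaks covered 42.7 Mb on chromosomes 1 to 22 and X. Areas ran from a floor of about 200 to 20557 with a median of 581.4 and quartiles of 330.5 and 1298. Widths ran from 125 to 7748 bp with a median of 539 bp. The deposited −log10 of the summit p ran from 2.72 to 15.9, with a median of 4.54. Most of the list was small: 5% of peaks had an area above 4072 and 1% above 6762.

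A peak is called a gene-end peak here when it lies at most 1 kb from the first or last annotated base of any protein-coding gene, and distal otherwise. There were 13492 gene-end peaks, 22.11% of the list (21.78 to 22.44), and 47524 distal peaks. Gene-end peaks held 48.2% of the summed area and 38.3% of the covered bases. Their median area was 2006, against 478.2 for distal peaks, and their median width 1140 bp, against 463 bp. They were also stronger for their width, at a median of 1.74 area units per base, against 1.16 for distal peaks. The median −log10 of the summit p was 6.04 in gene-end peaks and 4.28 in distal peaks.

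Of the gene-end peaks, 9899 (73.37%, 72.62 to 74.11) lay within 1 kb of a listed transcription start, so the class is mainly but not wholly one of promoters. Of the distal peaks, 22975 had the summit inside a protein-coding gene (48.34%) and 24549 outside. These subclasses had like sizes, with median areas of 483.9 and 473.6. For 14066 peaks (23.05%) the summit was over 100 kb from the ends of all protein-coding genes, and their median area was 451.8.

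Ordered by area and divided into 10 equal groups, the list passed from mostly distal to mostly gene-end. The gene-end share was 6.57% in the group of smallest peaks, 9.16% in group 5, 28.94% in group 8 and 76.86% in the group of largest peaks. Among the strongest 1% by area, 522 of 610 were gene-end peaks (85.57%, 82.56 to 88.14). Among the widest 1% they were 510 of 610 (83.61%), and among the 1% with most area per base 443 of 610 (72.62%).

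**Figure D2:**
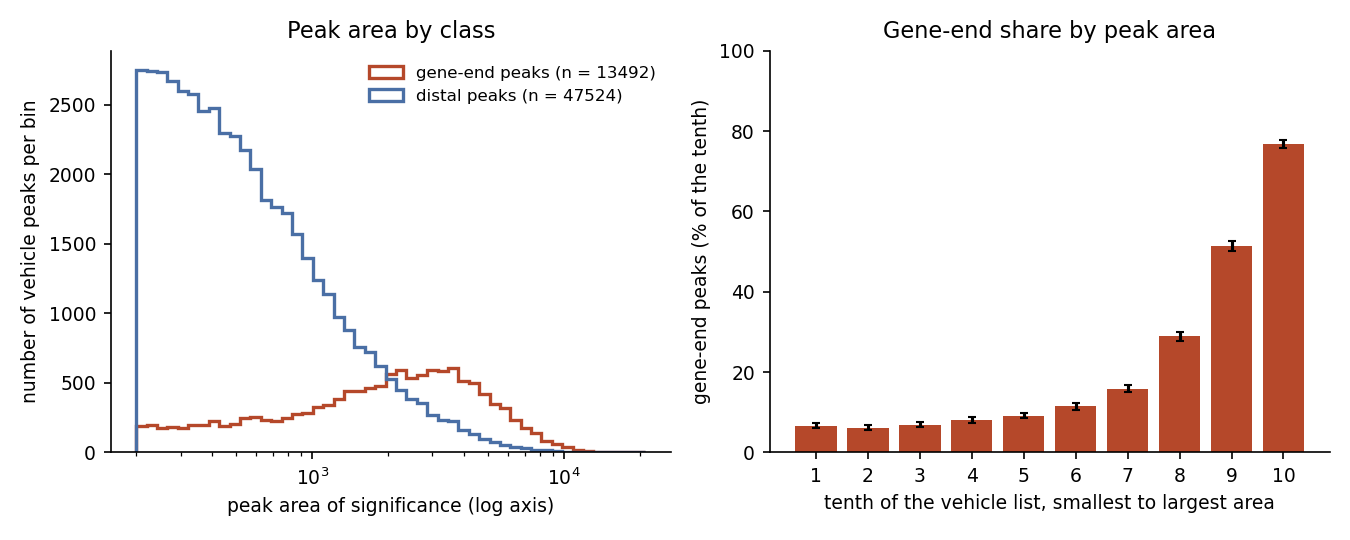
Left: number of gene-end and distal vehicle peaks per bin of area (log x axis). Right: gene-end peaks as a percentage of each of 10 equal groups of the list, ordered from smallest to largest area, with Wilson 95% intervals. Distal peaks crowd at the low end of the area axis, and the gene-end share is 6.57% in group 1 and 76.86% in group 10.

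The strongest peak of the list lay over the start of IRS2, an adaptor of the insulin and IGF receptors, on chromosome 13 at 109780865 to 109788025. It was 7161 bp wide and had an area of 20557. On the same chromosome a peak between CARS2, a mitochondrial cysteinyl-tRNA synthetase, and ING1, a chromatin reader, had an area of 16309.6 (110712013 to 110716514). The third, 16302, covered NR2F2, the gene of the orphan nuclear receptor COUP-TFII, on chromosome 15 at 96329876 to 96337623.

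SIN3A, the scaffold of a histone deacetylase complex, followed with 16085 (chromosome 15, 75450225 to 75456442). UPP1, a uridine phosphorylase, had 14278 (chromosome 7, 48087953 to 48090858) and GOLIM4, a Golgi membrane protein, had 13436 (chromosome 3, 168094269 to 168096919). TRIB1, a pseudokinase, had 13327 (chromosome 8, 125428939 to 125432902), and the zinc finger gene ZNF462 had 13109.5 (chromosome 9, 106859985 to 106865131). None of these 8 peaks lay at a gene of the steroid pathway, and 7 of them were gene-end peaks. The NR2F2 peak counted as distal because it lay 2640 bp from the nearest annotated gene end, but it covered a listed start within the gene.

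Width gave a partly different order. The NR2F2 peak was the widest, at 7748 bp. MYO1G, an unconventional myosin, came second with 7212 bp on chromosome 7 at 44973476 to 44980687, yet its area was 4011.5, or 0.556 per base, against the list's median of 1.24. The IRS2, SIN3A and ZNF462 peaks also stood among the 8 widest. The remaining 3 lay at ANP32A, which encodes an acidic nuclear phosphoprotein (5421 bp), at TRIM8, an E3 ubiquitin ligase gene (5053 bp), and at EFNA5, an ephrin ligand gene (4896 bp). Of the 610 widest peaks, 312 were also among the 610 of largest area (51.15%, 47.19 to 55.09). Area and width share a term, and by area per base the overlap was 41 of 610.

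**Figure D3:**
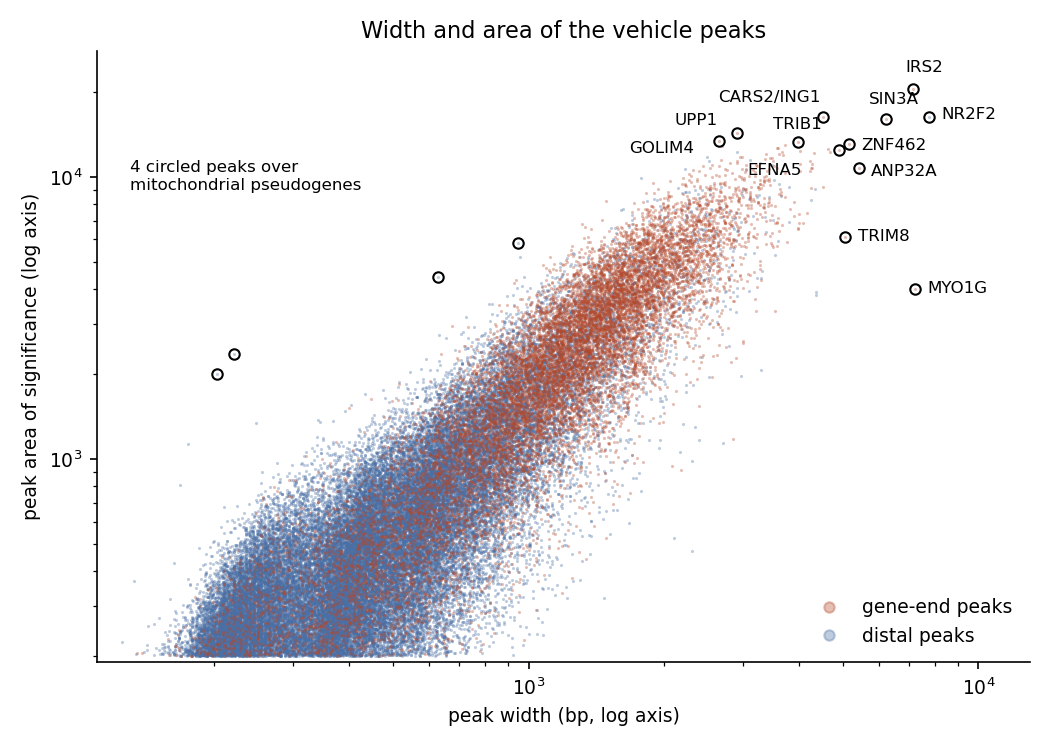
Width (bp) against area of every vehicle peak, both on log axes, coloured as gene-end or distal, with the named strongest and widest peaks circled. IRS2 is highest at 20557, MYO1G combines a width of 7212 bp with an area of 4011.5, and the 4 circled peaks at the left lie over mitochondrial pseudogenes.

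Peaks with the most area per base were narrower and lay elsewhere. Among peaks of at least 500 bp, the highest lay on chromosome 1 at 633524 to 634152 over MTATP8P1 and MTATP6P1, pseudogenes copied from mitochondrial DNA, with 6.99 area units per base. The second lay nearby at 632195 to 633144, over MTCO1P12 and MTCO2P12, with 6.13. The 4 peaks of highest −log10 summit p, 15.9, 15.4, 15.1 and 13.6, all lay within this stretch of mitochondrial pseudogenes. Near-identical copies share reads, so signal there cannot be told apart from signal of mitochondrial DNA.

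The next 4 lay in or near nuclear genes. A peak 57997 bp from MANEA, an endomannosidase gene, on chromosome 6 at 95518557 to 95520333 had 5.58 area units per base. Peaks between SUN3 and C7orf57 (48035079 to 48036568), near COA1 (43734433 to 43735387) and between URGCP and UBE2D4 (43925826 to 43927139), all on chromosome 7, had 5.52, 5.43 and 5.16.

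The strongest distal peak after that at NR2F2 lay inside GLI3, a transcription factor of hedgehog signalling, on chromosome 7 at 42235616 to 42238516 with an area of 12300.1. Those that followed lay inside RGMB, a BMP co-receptor gene (11762), and DCUN1D4, a gene of the neddylation pathway (11433), each over a further listed start. The fifth covered MIR17HG, the host gene of the miR-17-92 microRNA cluster, on chromosome 13 at 91346958 to 91349474 (11419). The remaining 3 of the first 8 lay in ZPBP, in RBPJ, the DNA-binding partner of Notch, and over FAM86DP and LINC02018, with areas of 11203, 11011 and 10632. By rule distal peaks include such starts: 1730 distal peaks (3.64%) lay within 1 kb of a further listed start of a protein-coding gene, and 1506 others (3.17%) lay near a listed start of another gene type only.

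Assigned to the nearest gene end within 100 kb, peaks fell unevenly on genes. Of 19974 protein-coding genes, 4182 had no assigned peak (20.94%), the median gene had 1, the mean was 2.35, and 500 genes had 10 or more. COBL, an actin nucleator gene, had the most, 68, followed by GRB10, an imprinted adaptor of the insulin receptor, with 58, and TNS3, a focal adhesion tensin, with 45. PKD1L1 had 40, the adenylyl cyclase gene ADCY1 38, the lymphoid transcription factor gene IKZF1 37 and the kinase gene CAMK2B 34. All 7 lie on chromosome 7. The eighth, RGS3, a regulator of G protein signalling on chromosome 9, had 31.

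By summed area TNS3 led with 55841, then GRB10 with 47325, COBL with 46928 and MEF2C, a MADS-box transcription factor gene, with 45933 in 30 peaks. RGS3 had 44869.5, DAB2IP, a Ras GTPase-activating protein gene, 43854, WHRN, a scaffold protein gene, 41033 and CAMK2B 40206. The 100 genes with most peaks and the 100 with the largest summed area shared 49. Long genes gather more peaks: the median length of the 100 with most peaks was 210.4 kb, against 24.2 kb over all genes. Among genes of 20 kb or less, a subset chosen after its values were seen, TRIM32 had 16 peaks and TBX3 15, and ARRDC4, ANXA2R, IGFBP3, PDK4 and INSIG1 had 14 each.

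The 7 genes of chromosome 7 share a stretch between 40 and 55 Mb that stood apart from the rest of the genome. It held 1289 peaks (2.11% of the list), and its 3 windows of 5 Mb held 407, 473 and 409 peaks, against a median of 98 and quartiles of 71 and 129 over 597 windows. Gene-end peaks were 94 of those 1289 (7.29%, 6.00 to 8.84), against 22.43% elsewhere (22.10 to 22.77). The median area per base was 0.852 in the stretch and 1.25 elsewhere. Within classes it was 1.17 in gene-end peaks of the stretch, against 1.74 elsewhere, and 0.843 in its distal peaks, against 1.16 elsewhere. Not every peak there was weak: the peaks at C7orf57, COA1 and URGCP named above, with 5.52, 5.43 and 5.16 area units per base, lie in it. The stretch was noticed in the data, and what sets it apart was not tested.

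Joining distal peaks no more than 12.5 kb apart gave 33077 clusters, of which 24255 were single peaks (73.33%) and 42 had 10 or more. Ranked by summed area and scaled to 1 on both axes, the curve reached a slope of 1 at a summed area of 3875. Beyond this tangent point lay 1319 clusters (3.99%, 3.78 to 4.20), with 4923 of the distal peaks (10.36%) and 22.2% of distal area. These had a median of 3 peaks over 12276 bp, and 253 were single peaks. The point is not a gap in the values: the last cluster inside had 3875.1, at KLHL8, and the first outside 3874.5, at TRAF2. Such clusters are named after the gene they overlap or lie nearest to within 100 kb, and 137 had no such gene.

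The largest cluster, 25 peaks in TNS3 on chromosome 7 at 47435546 to 47508881, had a summed area of 40298. WHRN (20 peaks, 27148), MEF2C (13 peaks, 24613), CAMK2B (24 peaks, 23876) and IKZF1 (30 peaks, 21908) followed. Further down, GRB10 had 18214, VWC2 with ZPBP 17805.5, THSD4, a matrix protein gene on chromosome 15, 17566, and a second TNS3 cluster 17346. Of these first 10, 7 lay in the stretch of chromosome 7, which held 84 of the 1319 (6.37%).

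Genes of adrenocortical function appeared just after them. SCARB1, the HDL receptor that supplies cholesterol esters to the adrenal cortex, ranked 11th with 18 peaks between 124767047 and 124867804 on chromosome 12 and a summed area of 17123.5. NR4A1, a nuclear receptor gene induced by ACTH, ranked 15th with 12 peaks and 16194, in a cluster that also spans ATG101 and SMIM41. KCNK3, the potassium channel TASK-1, ranked 34th with 12850.2. CYP11A1 ranked 175th with 5 peaks and 8117, and NR5A1 281st with 4 peaks and 7030, in a cluster shared with its neighbour NR6A1. Of these 4 peaks only 2, of 1245 and 383.9, were assigned to NR5A1, and the largest, of 3381, was not, so the NR5A1 cluster passes the tangent point only together with peaks nearer to another gene.

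**Figure D4:**
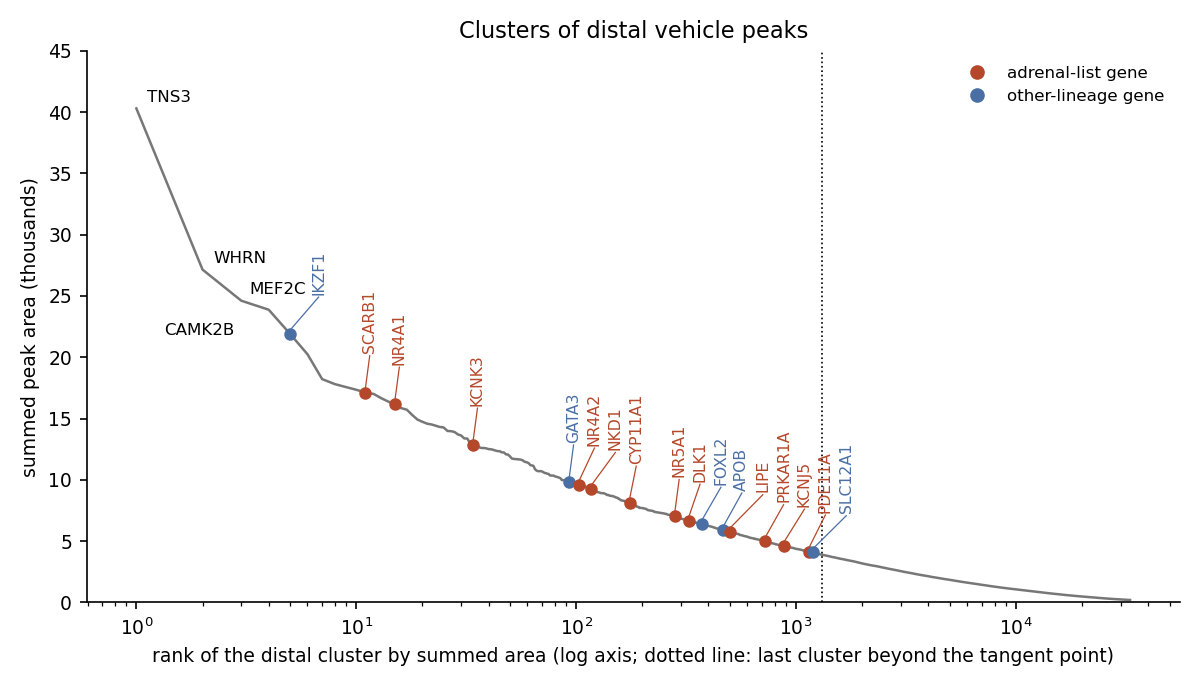
Clusters of distal vehicle peaks ranked by summed area (log x axis; y axis in units of 1000), with the first 4 named and the listed genes named in the text whose cluster lies beyond the tangent point (dotted line) marked by class. SCARB1 is the highest marked adrenal gene, at 17123.5, and NR5A1 stands at 7030.

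The 5 lists of 66 adrenal genes (steroid enzymes, regulators, ACTH and angiotensin signalling, cholesterol supply, and Wnt targets and feedback), 13 lists of 118 genes of other lineages and 1 list of 16 housekeeping genes were then set against all protein-coding genes. The lists and their members were chosen with earlier results of these data known. The shares below are therefore descriptions and not an independent check of the cell label. A gene-end peak was present at 52 of 66 adrenal genes (78.79%, 67.49 to 86.92), at 38 of 118 other-lineage genes (32.2%, 24.45 to 41.08) and at 16 of 16 housekeeping genes. The share over all protein-coding genes was 67.6%. The adrenal share thus lay above that background with an interval that just reaches it, while the other-lineage share and its whole interval lay below it. Counting only peaks within 1 kb of a listed start, for genes with at least 1 listed, gave 39 of 43 adrenal genes (90.7%), 22 of 70 other-lineage genes (31.43%) and 70.86% over all genes. By this rule neuronal genes, at 6 of 7 (85.71%), lay above all genes and above the steroid enzymes, at 9 of 12 (75%). The remaining other-lineage lists each had at most 50%.

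Distal clusters divided the lists as well. A cluster beyond the tangent point was assigned to 13 of 66 adrenal genes (19.7%, 11.89 to 30.84) and to 5 of 118 other-lineage genes (4.24%, 1.82 to 9.54), against 5.78% over all protein-coding genes. Median summed area was 4663 per adrenal gene, 606.7 per other-lineage gene and 1938 per protein-coding gene. Median gene length was 35.4 kb in the adrenal lists, 13.9 kb in the other lineages and 24.2 kb over all genes. Among genes of 10 to 100 kb, a limit set after seeing the data, 35 of 42 adrenal genes (83.33%) and 17 of 53 other-lineage genes (32.08%) had a gene-end peak, and 8 of 42 (19.05%) and 3 of 53 (5.66%) had such a cluster. Over all protein-coding genes of that length the shares were 72.41% and 5.05%, and the adrenal gene-end interval, 69.40 to 91.68, includes the background.

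**Figure D5:**
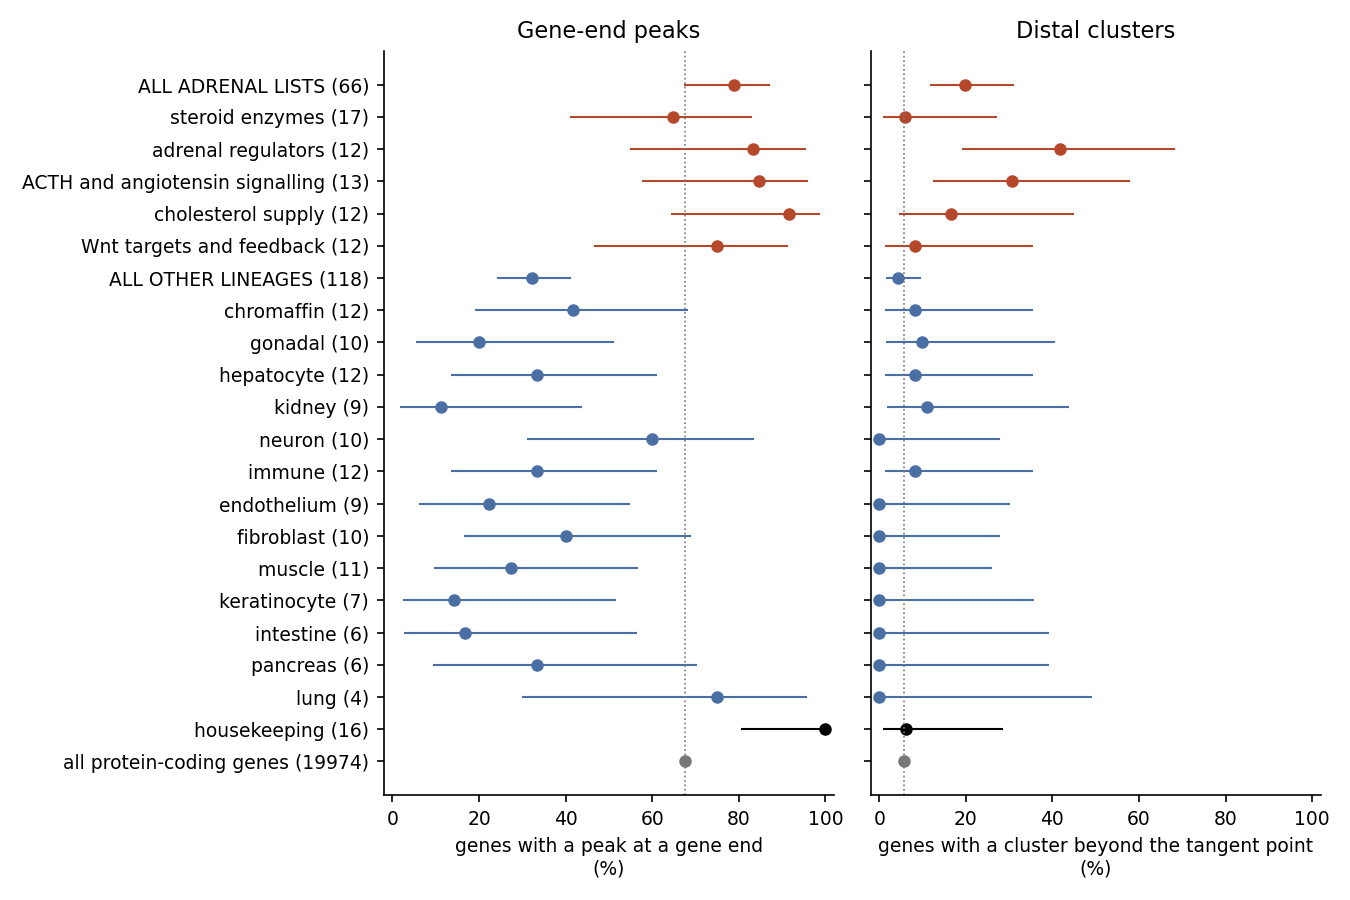
Percentage of each list's genes with a gene-end peak (left) and with a distal cluster beyond the tangent point (right), with Wilson 95% intervals; list sizes are in brackets and the dotted line marks all protein-coding genes, 67.6% and 5.78%. The 66 adrenal genes lie at 78.79% and 19.7%, and the 118 other-lineage genes at 32.2% and 4.24%. The lists were chosen with earlier results of these data known.

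Steroid enzymes were the adrenal list nearest to the background, with a gene-end peak at 11 of 17 genes (64.71%) and a distal cluster beyond the tangent point at CYP11A1 alone. By summed area CYP11A1 led with 9385, followed by the aldose reductase gene AKR1B1 (7295), the 5α-reductase gene SRD5A1 (7233, in a single peak that also lies at the end of another gene), HSD17B4 (6966), the electron donor POR (5731) and the ferredoxin reductase FDXR (4601). The 6 without a gene-end peak were HSD3B2, CYP21A2, CYP11B1, CYP11B2, SULT2A1 and AKR1C3, and they are named after their values were seen. Each had distal peaks, from 1 at CYP21A2 and CYP11B1 to 4 at CYP11B2. The HSD3B2 peaks, of area 316.3 and 815.8, lay 27192 and 30199 bp from its nearest end, and SULT2A1, the DHEA sulfotransferase, had a peak of 1371 lying 6113 bp away. CYP21A2 has a near-identical pseudogene and CYP11B1 and CYP11B2 are near-identical to each other, so calls at these 3 are uncertain.

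Adrenal regulators had a gene-end peak at 10 of 12 genes and a cluster beyond the tangent point at 5, among them NR5A1, NR4A1, NR4A2 and DLK1. NR4A2, a relative of NR4A1, had the largest summed area of this list, 21626, from a peak of 11362 over one gene end and another of 9213 whose summit lay 9131 bp away. NR4A1 had 14916 and DLK1, a marker of adrenocortical progenitor cells, 10718. DLK1 had a gene-end peak of only 336.1, its area lying in distal peaks up to 68192 bp from the gene. CITED2, a coactivator of the adrenal primordium, had 7253 and MGARP, a mitochondrial protein gene of steroidogenic cells, 7034. GATA6 had a gene-end peak of 4711, whereas GATA4 had none and 5 distal peaks of 460.9 to 1372. WT1, a regulator of the early gonad and adrenal primordium, and INHA, the inhibin α gene, had no assigned peak. A peak of 1611 within 1 kb of an INHA end also lay at a neighbouring gene.

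The receptors and second messengers of ACTH and angiotensin had gene-end peaks at 11 of 13 genes and clusters at 4, KCNK3, KCNJ5, PRKAR1A and PDE11A. The PRKAR1A cluster is a single peak of 4974 that covers listed starts of the gene, so it is not a group of distal elements. KCNK3 had 18286 in 10 peaks, with 4021 at its start and 4378 and 4168 inside the gene. The cAMP phosphodiesterase gene PDE8A had 14218, of which 9074 lay in its start peak, and the potassium channel KCNJ5 12573. The calcium channel CACNA1D had 6767, the phosphodiesterase PDE11A 6504 and the angiotensin receptor AGTR1 5554. The ACTH receptor gene MC2R stood low, with 2 peaks of 338.3 and 215.0, and 73.9% of vehicle peaks were larger than the first. Its partner MRAP had no gene-end peak, and its largest peak, of 1787, lay inside the gene.

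Cholesterol supply had the highest gene-end share of the adrenal lists, 11 of 12, the exception being LIPE, the hormone-sensitive lipase, which had a cluster beyond the tangent point. SCARB1 had 23 peaks summing to 23487, with 3238 at a gene end and 3634 in its largest peak, inside the gene. STARD4, a sterol carrier, had 11697 in 9 peaks, and the synthesis enzyme HMGCS1 had 8778, of which 8275 lay in the start peak. LIPE had 8242.5.

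Wnt targets and feedback genes had gene-end peaks at 9 of 12 and 1 cluster beyond the tangent point, at NKD1, an inhibitor of Dishevelled. NKD1 had 18460 in 12 peaks, 4324 of it at a gene end and 3873.5 in the first of 4 clustered peaks inside the gene. The ubiquitin ligase genes ZNRF3 and RNF43, which remove Wnt receptors, had 11040.3 and 7223. The transcription factor LEF1 had 8567, of which 7054 lay in a gene-end peak that another gene's end shared, the receptor LGR5 8357 and the scaffold AXIN2 7944.

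No peak was assigned to 2 of 66 adrenal genes, 37 of 118 other-lineage genes and 20.94% of all genes. Chromaffin cells of the adrenal medulla, the nearest neighbours of cortical cells in the gland, had a gene-end peak at 5 of 12 genes. Of their defining genes, TH, PNMT and PHOX2A had none, and DBH had one of 1075 that another gene's end shared. CHGA and CHGB, which encode chromogranins of the secretory granules, and the transcription factor gene HAND2 had unshared gene-end peaks of 1371, 2990 and 1705. GATA3 led this list with 12025, and its peaks of 378 to 5630 inside the gene formed a cluster that ranked 93rd. GATA3 itself had no gene-end peak, but some of its peaks hold further listed starts.

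The steroid-producing gonad had gene-end peaks at 2 of 10 genes. FOXL2, an ovarian transcription factor, led with 6397 and a cluster ranked 373rd, and CYP19A1, the aromatase, had 5049. For hepatocytes it was 4 of 12, led by APOB with 8564 and FGG with 5278, and for kidney 1 of 9, led by PAX2 with 7108 and SLC12A1 with 4075. APOB and SLC12A1 had clusters beyond the tangent point, ranked 468th and 1194th.

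Neuronal genes had a gene-end peak at 6 of 10, with SYT1 at 10924 and SNAP25 at 5407.5, and no cluster. Immune genes had 4 of 12 and 7 genes with no peak. IKZF1, with 29625, lies in the stretch of chromosome 7, and the next, PTPRC, had 3082. Endothelium had 2 of 9 (CDH5 5180.3, KDR 3041), fibroblasts 4 of 10 (PDGFRA 6998, TWIST1 3439) and muscle 3 of 11 (TTN 4039, NKX2-5 2775). Keratinocyte and intestinal genes had 1 of 7 and 1 of 6, pancreas 2 of 6 and lung 3 of 4, where the highest summed areas were TP63 985.1, CDX1 1097, PTF1A 1808 and NKX2-1 2693.

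Promoter sequence was compared between the 10220 of 15812 listed promoters whose start lay in a peak and the other 5592. Open promoters were richer in G and C, with a median of 66.0% against 52.8% in closed ones, and held a median of 22 CG dinucleotides against 4. Open promoters held the Sp/KLF letters in 71.15% (70.27 to 72.02), against 27.68% in closed ones (26.53 to 28.87) and 55.8% of all promoters of that length. The NRF1 letters stood in 5.20% of open and 1.06% of closed promoters (3.73% of all). The cAMP response element stood in 3.04% and 0.912% (2.29% of all). Both of these motifs hold a CG.

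The other motifs were more frequent in closed promoters. The SF-1 letters stood in 58 of 10220 open promoters (0.568%, 0.439 to 0.733), against 88 of 5592 closed ones (1.57%, 1.28 to 1.94) and 0.923% of all. The GATA letters stood in 3.84% of open and 12.54% of closed promoters (6.91% of all), AP-1 in 3.13% and 8.42% (5.00% of all) and TCF/LEF in 0.773% and 1.82% (1.15% of all). These motifs hold no CG, and base composition differed between open and closed promoters, so the frequencies were not separated from it. Of the listed genes with a promoter entry, the 1 start used per gene lay inside a peak, a narrower rule than a peak within 1 kb of any listed start, at 33 of 43 adrenal genes (76.74%, 62.26 to 86.85) and at 13 of 70 other-lineage genes (18.57%, 11.19 to 29.23), against 64.63% of all. None of the 43 adrenal promoters held the SF-1 letters in its 250 bases. With these letters in only 0.923% of all promoters, 43 promoters are too few for that count to be read as low. Variant spellings of the motif were not counted in it. Distal peaks, where no sequence was used, were not searched.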

How the data were processed

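ATAC-seq peaks of the vehicle group were used as deposited, with 1 list for 2 libraries. Bowtie2, Genrich and deepTools 2.0 and build hg38 are named in the submitters' processing notes, without their roles. How libraries were combined and reads filtered, the Tn5 shift and the peak threshold were not found in the sources used here. The deposited area is a score, with no stated normalization, and a second deposited score equals 1000 times area over width, capped at 1000. The deposited −log10 of the summit p is unadjusted. The remaining deposited columns give start, end and summit in bp. Areas were used to rank and describe peaks within this list.

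Genes came from RefSeq on assembly GRCh38.p14, which shares its coordinates with hg38, as 19974 protein-coding genes on chromosomes 1 to 22 and X. All 200 genes of 19 lists matched. A promoter table gave start and strand for 15812 genes, 126 of them listed, and 1 start per gene was used for promoter sequences. Each peak was given to the gene whose end was closest to the summit, up to 100 kb away. The lists, members and rules were chosen with earlier results of these data known. Named were the 8 largest and widest peaks, the 6 with most area per base, the 8 genes with most peaks or area, the 10 largest clusters, and the first 6 genes of each adrenal list and 2 of each other list by summed area. Scripts ran in Python 3.11.15 with numpy 2.4.6, pandas 2.3.3 and scipy 1.17.1 and were tested on simulated peaks. A few genes that these rules would name are not reported here, though counts over the lists include them.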

Additional observations from a re-analysis of the deposited data

How the results depend on the processing

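One list without replicate values sets the limits: how the 2 libraries differ and how depth bears on the weakest peaks cannot be told. No paired analysis was possible because each group has 1 list and no values per library, and no replicate could be left out for the same reason. Of 50 alternative values, 32 stayed within the 95% interval of the reported value (counts: within 1.5 times) and 18 moved. The gene-end share of peaks was 26.54% within 2.5 kb of an end, 20.04% within 500 bp, 36.88% in the 50% of peaks of larger area, 41.2% at a −log10 summit p of at least 5 and 19.06% by listed starts alone. The widest 1% shared 6.721% with the strongest 1% by area per base and 17.21% by −log10 p, and the top 5% shared 67.94%. The 100 genes with most peaks shared 69 with the 100 of largest area when summits had to lie inside the gene. Clusters numbered 15865 in the 50% of larger area. Beyond the tangent point lay 2050 clusters when joined within 5 kb, 716 in the 50% of larger area and 3007 ranked by number of peaks. The adrenal gene-end share was 90.7% by starts alone, against 70.86% over all genes. The other-lineage share was 42.37% within 2.5 kb, against 72.03% over all genes, and 22.03% in the 50% of larger area, against 61.38%; there the other-lineage cluster share was 1.695%, against 3.244% over all genes. The SF-1 share of open promoters was 1.918% with the 7 letters AAGGTCA, against 4.632% of closed ones. Leaving out the stretch of chromosome 7, limiting gene length and dropping shared ends were chosen after seeing the data. With shared ends dropped, 69.7% of adrenal genes (57.78 to 79.45) and 27.97% of other-lineage genes had a gene-end peak. The share over all genes was not computed by that rule. Without the stretch 1958 clusters lay beyond the tangent point, and 22.73% of adrenal and 5.085% of other-lineage genes had one, against 8.361% of all genes. In all 8 cluster settings 6 adrenal genes (CYP11A1, KCNK3, LIPE, NKD1, NR4A1 and SCARB1) and 1 other-lineage gene, GATA3, had such a cluster. IKZF1, of the immune list, had one in every setting but that without the stretch, which leaves out its peaks. The NR5A1 cluster was lost when peaks were joined within 5 kb or counted as distal beyond 2.5 kb.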

Other observations

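Non-coding genes lay under some of the strongest distal peaks, in a view chosen after the values were seen. The starts of 1137 of 11383 listed non-coding genes lay in a distal peak. After MIR17HG (11419), the largest peak lay over the start of FLJ46875, with an area of 9213, and was nearest to NR4A2. Those over the starts of RUSC1-AS1 (8922), UBE2D3-AS1 (8705), DLEU2 (8602), LOC112267936 (8521) and LINC-PINT (8356) followed. The FLJ46875 peak makes up most of the NR4A2 cluster, whose summed area is 9598.

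Of 1558 listed microRNA hairpins, 146 lay under a vehicle peak (9.37%, 8.02 to 10.9), 59 of them at peaks away from protein-coding gene ends. The largest of these peaks covered MIR1469 within the NR2F2 peak (16302), MIRLET7I, the let-7i hairpin (7035), MIR3650 inside LIFR (6029.5) and MIR12136, which lies among the mitochondrial pseudogenes of chromosome 1 (5821.5). MIR130B had one of 4693. How many of these peaks are promoters of the hairpins was not tested. No background share was computed for the hairpins or for the non-coding starts, so neither count is read as high or low.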
